A study of Mus musculus with 60 samples.

Results

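The step from the 2-cell to the 4-cell stage was examined in mouse embryos made by nuclear transfer of a fibroblast nucleus (NTM embryos). Its members are 6 libraries of the 60 in the series, 3 of NTM 2-cell embryos and 3 of NTM 4-cell embryos, each from a single embryo. They were taken by their labels, and the change was followed over the autosomal genes, 25848 of the 27238 genes in the table. The remaining genes were 1125 on the X chromosome, 24 on the Y chromosome, 16 of the mitochondrial genome and 225 with no chromosome in the annotation.

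All NTM embryos carried the nucleus of a mouse embryonic fibroblast (MEF) from BDF1 fetuses (C57BL/6 × DBA2), passaged and serum-starved, in an enucleated BDF1 oocyte. They were activated with SrCl2 and cytochalasin B in the presence of Scriptaid, an inhibitor of histone deacetylases, and grew in vitro, so both stages shared these treatments. NTC embryos had the same activation and culture, with nuclei of cumulus cells that were taken from adult superovulated BDF1 females and kept cold until use. Passaging and serum starvation are described for MEFs only. Donor cell type, donor age and donor culture therefore cannot be told apart when NTM and NTC embryos are compared. In vivo embryos came from superovulated C57BL/6 females mated with DBA2 males and were collected from the mothers. Their oocytes were thus C57BL/6, against BDF1 oocytes in NTM embryos. Oocyte strain, enucleation, the somatic nucleus, fertilization, culture, activation and Scriptaid treatment therefore cannot be told apart when NTM and in vivo embryos are compared. Each of these groups had 3 libraries per stage from embryos chosen by their morphology, and the labels do not tie a library to an experiment, so p-values measure the spread between single embryos as sampled. In whole embryos, fewer cells of a type and less RNA per cell cannot be told apart.

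A mouse oocyte stores mRNA for its first divisions and transcribes little until after activation or fertilization. Zygotic genome activation (ZGA) begins with a minor wave in the 1-cell embryo and a major wave in the 2-cell embryo, while deadenylation and decay remove the stored maternal mRNA. After nuclear transfer the donor chromatin must be silenced and then activated in the place of a zygotic genome.

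Reads on genes numbered 12384469 to 19596654 in the NTM 2-cell libraries and 9771750 to 18436503 in the NTM 4-cell libraries, and 3 reads on a transcript of 2000 nt equalled 0.0765 to 0.154 RPKM, so lower values and values of 0 leave a transcript undetected at this depth. Mitochondrial genes took 9.86%, 10.4% and 22.9% of the reads at the 2-cell stage and 40.4%, 35.8% and 29.6% at the 4-cell stage. Because RPKM is a share of a library, this rise in itself lowers the RPKM of nuclear genes at the 4-cell stage, and its size was measured by scaling each library to its autosomal genes. The in vivo 4-cell libraries stood apart from other 4-cell and later libraries in their mitochondrial reads, with 5.68% to 8.87% against 32.1% to 45.0% in in vivo 8-cell libraries. They had 12998 to 13390 autosomal genes above 0 against 8684 to 10520 in NTM 4-cell libraries, although NTM blastula replicate 1 had 13019. For this reason the comparison with in vivo embryos is also given with 8-cell libraries in the place of the 4-cell libraries, a choice made after seeing the data. Across 11268 autosomal genes, the NTM libraries had Pearson correlations of 0.696 to 0.778 within the 2-cell stage, 0.728 to 0.758 within the 4-cell stage and 0.210 to 0.321 between the stages, as a description over genes, which are not replicates.

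In NTM embryos the transcripts that filled the 2-cell embryo were nearly gone at the 4-cell stage, and another set had taken their place. Of 11268 autosomal genes tested, 2976 changed (26.4%), 1360 of them rising (12.1%) and 1616 falling (14.3%), with a median log2 change of 3.35 among the risen and -3.41 among the fallen genes. The genes that fell held 64.0%, 68.5% and 73.4% of the summed autosomal RPKM in the 3 NTM 2-cell libraries and 3.67%, 4.30% and 3.86% in the 4-cell libraries. The genes that rose went from 3.99%, 2.46% and 2.08% to 53.05%, 52.0% and 48.9%. The median risen gene stood at 1.41, 0.746 and 0.114 RPKM in the 2-cell libraries and at 25.997, 29.4 and 29.1 RPKM in the 4-cell libraries. The median fallen gene went from 20.3, 22.2 and 18.6 RPKM to 0.0970, 0.0400 and 0.0954 RPKM. These medians and shares describe genes that were called on the same libraries.

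**Figure D1:**
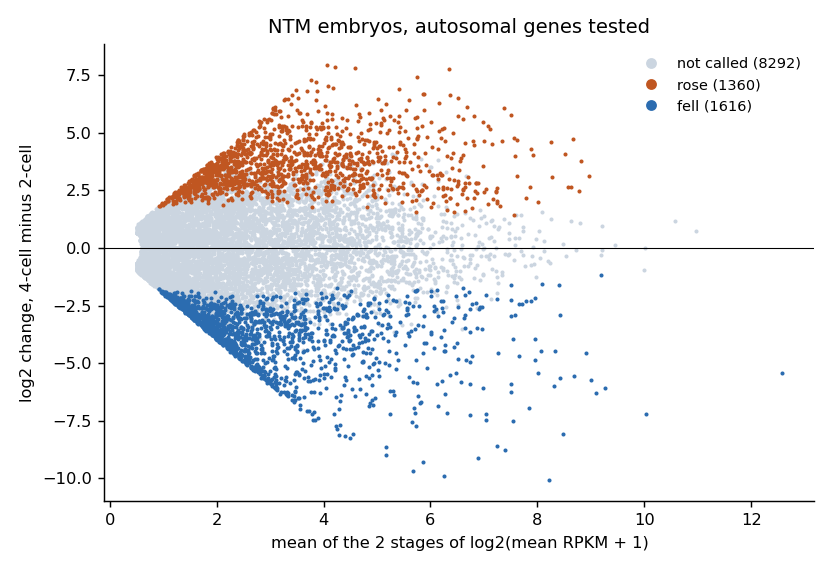
Log2 change from the NTM 2-cell to the NTM 4-cell stage (vertical axis) of each autosomal gene tested against the mean of the 2 stages of log2(mean RPKM + 1) (horizontal axis), with 1360 risen genes in orange, 1616 fallen genes in blue and the other genes in grey. The rises reach 7.97 and the falls -10.09 on the log2 scale, and the straight outer edges are genes near 0 RPKM at one of the stages.

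A gene was called where limma gave an adjusted p under 0.05 (Benjamini-Hochberg) and a log2(RPKM + 1) change of at least 1. The smallest called changes were 1.42 and -1.19, and 401 risen and 533 fallen genes changed by at least 4 on the log2 scale. All 3 libraries of one stage lay outside those of the other for 1355 risen and 1614 fallen genes. Such a separation was found for 19.8% (4-cell higher) and 24.2% (4-cell lower) of all autosomal genes tested. At the 2-cell stage 89 risen genes were listed at 0 in every library, and at the 4-cell stage 193 fallen genes were. Protein-coding genes made up 94.0% of the risen, 88.7% of the fallen and 88.4% of all tested genes, and the median exon length was 3239 nt for risen, 4236 nt for fallen and 3925 nt for all tested genes.

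The balance of rises and falls depended on the scaling. The median autosomal gene changed by -0.19 on the log2 scale as deposited, and with each library scaled to its autosomal genes it changed by 0.22, 1722 genes rose and 1367 fell, so that the risen share of the calls went from 45.7% to 55.7%. Median-ratio scaling, which sets libraries by genes above 0 in all of them, gave a median of -0.30, 1349 rises and 1762 falls. Leaving out any 1 library, which also leaves fewer libraries in the fit, lowered the count to between 1824 and 2552 genes. It was lowest without NTM 2-cell replicate 2, with 794 risen and 1030 fallen.

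Among called protein-coding genes with no predicted name and no overlap of the stages, the largest falls were led by oocyte transcripts. Predicted genes were left out of this choice, among them Gm10436, which went from a mean of 827 to 0.577 RPKM. Bcl2l10, an anti-apoptotic Bcl2 family member that is abundant in oocytes, stood at 10849, 8453 and 9501 RPKM in the 2-cell libraries and at 6.36, 12.4 and 5.87 RPKM in the 4-cell libraries, a log2 change of -10.09 (SE 0.43, adjusted p = 4.35e-05). Rfpl4, an oocyte RING finger-like protein, went from 3461, 1887 and 1796 RPKM to 0.960, 1.59 and 1.68 RPKM, a change of -9.90 on the log2 scale. In both genes the lowest 2-cell library was far above the highest 4-cell library. Zbed3, a partner of the subcortical maternal complex, fell by 8.78 on the log2 scale from 4788, 2822 and 2901 RPKM to 4.19, 9.73 and 7.27 RPKM. Tcl1b1 to Tcl1b5, a cluster of near-identical copies on chromosome 12 whose reads cannot be assigned with certainty, stood at 215 to 4816 RPKM in the 2-cell libraries, and each fell by at least 7.69. Of their 4-cell values, 14 of 15 were 11.6 RPKM or lower, and Tcl1b1 had 72.0 RPKM in NTM 4-cell replicate 2. Smco4, Rab38, Hmces and Cdo1 completed the 12 largest falls, with log2 changes of -7.72 to -8.10.

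**Figure D2:**
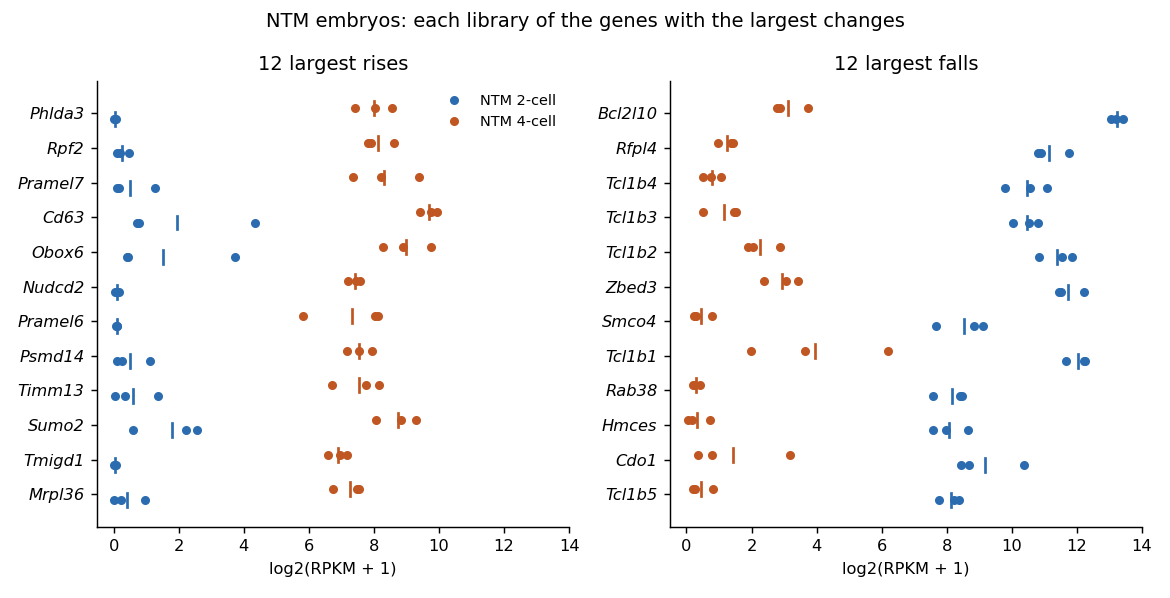
Log2(RPKM + 1) in each NTM 2-cell library (blue points) and NTM 4-cell library (orange points) of the genes with the 12 largest rises and the 12 largest falls, with a bar at the mean of each stage. Only called protein-coding genes with a symbol other than a predicted name and with no overlap of the stages were eligible. Among the rises Cd63 and Obox6 have 1 high 2-cell library each, at 19.2 and 12.2 RPKM.

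As a group, the zona pellucida, oocyte and subcortical maternal genes fell. Of 69 autosomal members 65 passed the filter on low values, and of these 48 fell (73.85%) and 0 rose. Over all autosomal genes tested 14.3% fell and 12.1% rose. The median log2 change of the list was -4.19 against -0.19 over all autosomal genes tested. Their summed level was 37262, 33279 and 38644 RPKM at the 2-cell stage and 387, 1080 and 338 RPKM at the 4-cell stage. Oas1e, an oocyte member of the oligoadenylate synthetase family, went from 181, 263 and 207 RPKM to 0.128, 0.227 and 1.23 RPKM. Nlrp5, a core component of the subcortical maternal complex, fell by 5.04 and Gdf9, the growth factor that the oocyte secretes to its cumulus cells, by 3.10 on the log2 scale. The list did not move as 1 block, since Zp3, a zona pellucida protein, had 14.1, 7.80 and 0.366 RPKM at the 2-cell stage and 12.4, 157 and 11.97 RPKM at the 4-cell stage, overlapping values with an adjusted p of 0.176. Mos, the kinase that holds the egg in meiotic arrest, was already at 0, 0.802 and 16.8 RPKM at the 2-cell stage and did not pass the test.

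Factors that remove maternal mRNA fell in part. Of 36 deadenylation and decay factors tested, 10 fell (27.8%) and 1 rose (2.78%), against 14.3% and 12.1% of all autosomal genes tested. The list median was 0.06 (0.47 with autosomal scaling and -0.22 with median-ratio scaling). Btg4, the adaptor that brings the CCR4-NOT deadenylase to maternal mRNA, went from 7898, 8897 and 15246 RPKM to 42.0, 232 and 32.9 RPKM, a log2 change of -7.20 (SE 0.69, adjusted p = 0.000488). Cnot6l, a deadenylase of that complex, fell by 5.94 on the log2 scale, from 141 to 161 RPKM in the 2-cell libraries to 0.268 to 2.83 RPKM. Marf1, an oocyte RNase, fell by 5.51, and Dcp2, the decapping enzyme, by 4.16 on the log2 scale. In each of these 4 genes the stages did not overlap.

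Among genes chosen by the same conditions, the largest rises were of mixed kinds. Phlda3, a p53 target that restrains Akt, stood at 0.0327, 0.0466 and 0 RPKM in the 2-cell libraries and at 170, 261 and 378 RPKM in the 4-cell libraries, a log2 change of 7.97 (SE 0.59, adjusted p = 0.000218). Rpf2, an assembly factor of the large ribosomal subunit, rose by 7.86 on the log2 scale, from 0.0796, 0.151 and 0.378 RPKM to 224, 394 and 241 RPKM. Pramel7, a leucine-rich repeat protein of early embryos, went from 1.43, 0.0681 and 0.114 RPKM to 164, 295 and 672 RPKM. Cd63, a tetraspanin of late endosomes, and Obox6, a homeobox factor of the cleavage stages, rose by 7.77 and 7.45 on the log2 scale, although 1 of their 2-cell libraries (replicate 1) was well above the others. The remaining genes of the 12 were Nudcd2, Pramel6, Psmd14 (the deubiquitinase of the proteasome lid), Timm13 (a chaperone of mitochondrial import), Sumo2, Tmigd1 and Mrpl36 (a mitochondrial ribosomal protein), with log2 changes of 6.84 to 7.31. All 12 had every 4-cell library above every 2-cell library, which was a condition of the choice.

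Ribosomal protein genes had the highest median change of the 26 lists in NTM embryos. Of 73 cytosolic ribosomal protein genes tested, 64 rose (87.7%) and 0 fell, against 12.1% and 14.3% of all autosomal genes tested. The median log2 change was 3.30, with a range of -0.01 to 6.68. Leaving out single libraries gave 56 to 62 risen genes. Rps27a, which is made as a fusion with ubiquitin, went from 10.2, 2.03 and 2.95 RPKM to 794, 571 and 319 RPKM. Rplp1, of the ribosomal stalk, went from 66.3, 39.9 and 71.0 RPKM to 2188, 1573 and 845 RPKM, a change of 4.61 on the log2 scale. Rpl14 and Rps23 rose by 4.71 and 6.00. In these 4 genes the highest 2-cell library lay below the lowest 4-cell library, and ribosomal protein genes have processed pseudogene copies that can take part of their reads.

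Of 99 nucleolar ribosome biogenesis genes tested, 39 rose (39.4%) and 0 fell, with a median of 2.30. Over all autosomal genes tested 12.1% rose and 14.3% fell. Without NTM 2-cell replicate 2 or replicate 3 the number was 21 and 23, respectively. Znrd1, an RNA polymerase I subunit, rose by 5.96 on the log2 scale from 0.0623, 2.48 and 0.197 RPKM to 200, 70.2 and 74.3 RPKM. Npm1, the most abundant nucleolar chaperone, was already at 157, 222 and 117 RPKM at the 2-cell stage and rose to 2172, 1379.6 and 897 RPKM. Fbl, the methyltransferase of box C/D snoRNPs, had 16.0, 1.44 and 9.34 RPKM against 30.6, 21.5 and 70.9 RPKM, which did not pass the test (adjusted p = 0.0810).

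To show the DNA upstream of genes of both kinds, the 250 bases before the RefSeq start (GRCm38.p6, on the strand of the gene) are given for a pair of risen ribosomal protein genes and for a pair of fallen oocyte genes, which were picked after their values were seen. Capitals mark CCAAT or GGGCGG on either strand. Rpl14 lies at chr9:120571267-120571516 (+), Rps23 at chr13:90922872-90923121 (+), Rfpl4 at chr7:5116912-5117161 (-) and Btg4 at chr9:51115751-51116000 (+).
Rpl14: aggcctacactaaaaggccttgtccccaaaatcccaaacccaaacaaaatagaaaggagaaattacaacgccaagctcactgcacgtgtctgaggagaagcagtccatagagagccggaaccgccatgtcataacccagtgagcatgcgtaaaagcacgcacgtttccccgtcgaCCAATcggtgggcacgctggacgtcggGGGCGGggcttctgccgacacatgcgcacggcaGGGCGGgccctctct
Rps23: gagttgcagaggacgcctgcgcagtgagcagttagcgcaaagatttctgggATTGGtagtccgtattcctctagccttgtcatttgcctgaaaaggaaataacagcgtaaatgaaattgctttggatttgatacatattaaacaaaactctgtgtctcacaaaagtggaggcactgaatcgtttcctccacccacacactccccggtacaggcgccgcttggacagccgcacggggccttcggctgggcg
Rfpl4: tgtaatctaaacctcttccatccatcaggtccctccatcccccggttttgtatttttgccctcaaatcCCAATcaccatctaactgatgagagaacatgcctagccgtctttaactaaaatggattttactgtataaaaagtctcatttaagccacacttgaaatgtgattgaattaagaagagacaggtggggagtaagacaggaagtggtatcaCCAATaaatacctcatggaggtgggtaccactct
Btg4: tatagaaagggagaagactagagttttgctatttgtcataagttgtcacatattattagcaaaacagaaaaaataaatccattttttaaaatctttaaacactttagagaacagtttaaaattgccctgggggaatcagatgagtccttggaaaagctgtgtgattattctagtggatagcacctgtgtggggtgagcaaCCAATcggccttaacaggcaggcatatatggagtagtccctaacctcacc
The window of Rpl14 holds 1 CCAAT and 2 GGGCGG, that of Rps23 1 CCAAT, that of Rfpl4 2 CCAAT and that of Btg4 1 CCAAT. Among 32851 RefSeq promoters of the same length, 33.8% hold CCAAT and 32.7% hold GGGCGG, so these matches are frequent. GC content was 57.2% and 50.8% for the ribosomal protein genes and 41.2% and 38% for the oocyte genes. RefSeq entries matched 73.6% of the tested genes, too few for a comparison of motifs between risen and fallen genes.

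Translation initiation factors rose in part. Of 47 tested, 20 rose (42.55%) and 2 fell (4.255%), against 12.1% and 14.3% of all autosomal genes tested, with a median of 1.91. Eif5, which triggers GTP hydrolysis at the start codon, went from 43.8, 35.2 and 28.8 RPKM to 504, 350 and 433 RPKM. Eif3a, Eif3c and Eif3e, subunits of the scaffold complex eIF3, rose by 5.24, 5.25 and 5.65 on the log2 scale. The 2 that fell were the cap-binding genes Eif4e3, from 176, 160 and 227 RPKM to 0.548, 0.203 and 2.39 RPKM, and Eif4e1b, the cap-binding protein of oocytes, from 12.1, 22.5 and 24.9 RPKM to 0.535, 0 and 0 RPKM. Eif1ad had 41.8, 8.39 and 1.47 RPKM at the 2-cell stage and 79.4, 59.9 and 112 RPKM at the 4-cell stage and just passed the test (log2 change 3.04, SE 0.97, adjusted p = 0.0488). That call was lost when any 1 library other than NTM 2-cell replicate 1 was left out, where the log2 change was 2.03 (without NTM 2-cell replicate 3) to 3.25 (without NTM 4-cell replicate 2).

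The transcription and splicing machinery changed less evenly. Of 40 RNA polymerase II and Mediator subunits tested, 12 rose (30%) and 4 fell (10%), against 12.1% and 14.3% of all autosomal genes tested. Their median was 0.97, and 5 to 10 rose when 1 library was left out. Polr2m, a subunit-like regulator of the polymerase, was listed at 0 in every 2-cell library and at 9.86, 13.8 and 22.7 RPKM in the 4-cell libraries. Med8 of the Mediator head had 0, 0 and 0.135 RPKM against 17.5, 8.90 and 18.8 RPKM. The 4 that fell were abundant at the 2-cell stage: Med30 went from 622, 539 and 475 RPKM to 21.2, 0.352 and 8.47 RPKM, and Med27, Med15 and the polymerase subunit Polr2c fell by 2.66, 3.67 and 2.90 on the log2 scale.

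Among 71 snRNP and core spliceosome genes tested, 13 rose and 1 fell, with a median of 0.87. The risen number was 8, 7 and 7 without NTM 2-cell replicate 2, NTM 2-cell replicate 3 and NTM 4-cell replicate 2, respectively. The 13 were 18.3% of the list, against 12.1% of all autosomal genes tested. Lsm5, of the ring that binds U6 snRNA, went from 0.709, 1.47 and 2.24 RPKM to 150, 87.9 and 48.1 RPKM, and Snrpd2, of the Sm ring, from 2.36, 0.694 and 0.956 RPKM to 57.2, 46.0 and 28.6 RPKM. Snrpb, another Sm protein, had 9.17, 0 and 0.368 RPKM against 5.90, 17.4 and 62.3 RPKM, overlapping values with an adjusted p of 0.0741.

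Protein turnover and folding genes rose in part. Of 38 proteasome subunit genes tested, 17 rose (44.7%) and 1 fell (2.63%), against 12.1% and 14.3% of all autosomal genes tested. Their median was 2.12, and 11 rose without NTM 2-cell replicate 2. Psmd14 went from 1.18, 0.206 and 0.0859 RPKM to 187, 142 and 244 RPKM. Psma6 and Psmd7 rose by 3.91 and 4.55 on the log2 scale. The chaperonin and heat shock list had 11 risen (44%) and 1 fallen (4%) of 25 tested, with a median of 2.16, and 7 risen without NTM 2-cell replicate 2. Hsp90aa1, the inducible cytosolic Hsp90, went from 130, 76.9 and 61.0 RPKM to 1869.9, 1319 and 1225 RPKM. Its co-chaperone Dnaja1 rose by 5.10, Hspa4, a nucleotide exchange factor of Hsp70, by 6.44, and Cct6a, a subunit of the chaperonin CCT, by 6.47 on the log2 scale. Dnajb1, another Hsp70 co-chaperone, fell from 213, 281 and 260 RPKM to 18.8, 35.0 and 27.4 RPKM.

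Nuclear genes of the respiratory chain and ATP synthase had 24 risen (34.3%) and 0 fallen of 70 tested, with a median of 1.55. Over all autosomal genes tested 12.1% rose and 14.3% fell. Without NTM 2-cell replicate 3 the risen number was 14, and without NTM 4-cell replicate 1 it was 13. Ndufa9, of complex I, went from 0.0972, 0 and 0 RPKM to 14.7, 43.1 and 17.0 RPKM, and Atp5f1, of ATP synthase, from 15.4, 9.79 and 2.60 RPKM to 90.3, 110 and 135 RPKM. Glycolysis, pyruvate and lactate genes had 5 risen (25%) and 2 fallen (10%) of 20 tested, against 12.1% and 14.3% of all autosomal genes tested. Their median was -0.19 and became 0.18 with autosomal scaling. Mpc2, a subunit of the pyruvate carrier of mitochondria, rose by 3.84 and Pfkfb3, which makes the activator of phosphofructokinase, by 3.44 on the log2 scale. Ldhb, the lactate dehydrogenase of oocytes, fell from 502, 560 and 341 RPKM to 29.2, 11.1 and 10.3 RPKM.

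**Figure D3:**
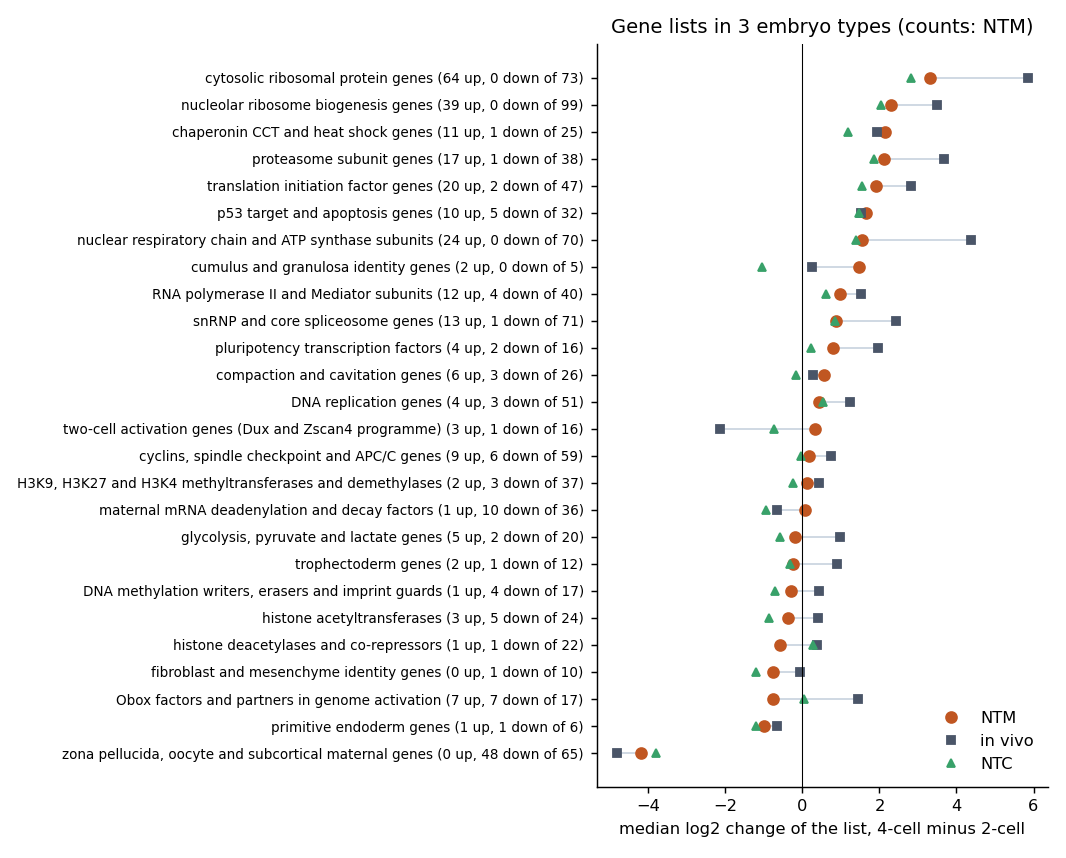
Median log2 change from the 2-cell to the 4-cell stage (horizontal axis) of the tested autosomal members of each of 26 gene lists in NTM (circles), in vivo (squares) and NTC embryos (triangles), with the numbers of NTM members that rose and fell in brackets. The cytosolic ribosomal protein list is the highest in NTM embryos at 3.30 and the maternal list the lowest at -4.19, and the lists with the widest gap between NTM and in vivo embryos include the ribosomal protein and respiratory chain genes.

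The genes that mark the 2-cell embryo behaved in several ways. Of 29 genes of the Dux and Zscan4 programme in the table, 16 passed the filter, of which 3 rose (18.75%) and 1 fell (6.25%), with a median of 0.34. Over all autosomal genes tested these shares were 12.1% and 14.3%. The 3 that rose were Pramel6, Pramel7 and Tdpoz2, the last from 0, 0.190 and 0.0705 RPKM to 7.93, 6.52 and 31.0 RPKM. Tcstv1 fell from 46.1, 109 and 47.6 RPKM to 0.0411, 0.220 and 0 RPKM. Zscan4b to Zscan4f, near-identical genes that guard telomeres in the 2-cell embryo, and Duxf3, the factor that switches on this programme, were listed at 0 in all 6 NTM libraries. In in vivo 2-cell embryos Zscan4c and Zscan4d stood at means of 106 and 178 RPKM and Duxf3 at 27.2 RPKM.

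The Obox family divided by its members. Of 17 Obox factors and partners tested, 7 rose (41.2%) and 7 fell (41.2%), against 12.1% and 14.3% of all autosomal genes tested. Without NTM 2-cell replicate 2, 4 rose. Obox5 went from 1944, 2115 and 2278 RPKM to 13.0, 52.4 and 5.51 RPKM, and Obox1 and Obox7 fell by 5.96 and 5.63 on the log2 scale. Obox2 was at 19.7, 24.8 and 27 RPKM and then listed at 0 in every 4-cell library. Obox6, Crxos (a homeobox gene of the same locus), Dppa4 and Nr5a2, an orphan receptor of early embryos, rose by 7.45, 4.01, 4.39 and 3.26. The maternal and the embryonic members of this family share sequence, so reads may be split between them.

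Calls among chromatin genes differed by list. Of the histone acetyltransferases tested 12.5% rose and 20.8% fell, against 12.1% and 14.3% of all autosomal genes tested. Of the deacetylases and co-repressors 4.5% rose and 4.5% fell. Histone acetyltransferase genes had 3 risen and 5 fallen of 24 tested, with a median of -0.39 that became 0.05 with autosomal scaling, and 3 fell without NTM 2-cell replicate 1, NTM 2-cell replicate 2 or NTM 4-cell replicate 2. Hat1, which acetylates newly made histone H4, went from 0.0354, 0.428 and 0.168 RPKM to 134, 157 and 120 RPKM, a log2 change of 6.84 (SE 0.56, adjusted p = 0.000318). Ing3, a subunit of the NuA4 acetyltransferase complex, went the other way, from 63.0, 94.0 and 75.3 RPKM to 0.707, 1.22 and 2.11 RPKM. Histone deacetylases and co-repressors had 1 risen and 1 fallen of 22 tested. Hdac1 had 22.7, 0.717 and 0 RPKM against 15.4, 38.1 and 95.9 RPKM, overlapping values with an adjusted p of 0.0635.

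DNA methylation genes had 1 risen (5.88%) and 4 fallen (23.5%) of 17 tested, against 12.1% and 14.3% of all autosomal genes tested. Zfp57, which guards imprints, went from 221, 221 and 142 RPKM to 5.54, 1.22 and 0.372 RPKM. Tet3, the maternal 5-methylcytosine oxidase, and Uhrf1, the partner of Dnmt1, fell by 4.15 and 2.71 on the log2 scale. Dnmt1, the maintenance methyltransferase, had 9.69, 11 and 5.28 RPKM at the 2-cell stage and 9.95, 8.57 and 7.01 RPKM at the 4-cell stage, overlapping values with a log2 change of 0.02 (SE 0.60) that was -0.12 with median-ratio scaling. Among 37 methyltransferases and demethylases of H3K9, H3K27 and H3K4, 2 rose (5.41%) and 3 fell (8.11%). Their median was 0.12 and became -0.03 with median-ratio scaling. Mtf2, a partner of Polycomb repressive complex 2, rose from 13.0, 12.2 and 19.3 RPKM to 112, 94.3 and 79.1 RPKM, while Phf1, its paralog, fell from 361, 281 and 331 RPKM to 1.40, 19.3 and 2.61 RPKM. Kdm4d, an H3K9 demethylase, was listed at 0 in all 6 libraries, and Kdm4b, another, was at 1.89, 0.609 and 0 RPKM against 0, 3.32 and 0 RPKM.

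Among cell cycle genes, several of the oocyte fell and others rose. Of 59 cyclin, spindle checkpoint and APC/C genes tested, 9 rose (15.25%) and 6 fell (10.2%), and 3 rose without NTM 2-cell replicate 2. These shares are near the 12.1% and 14.3% of all autosomal genes tested. Wee2, the oocyte kinase that inhibits Cdk1, went from 542, 508 and 593 RPKM to 0.366, 30.6 and 0.259 RPKM, and Fbxo43, which holds the egg at metaphase, fell by 5.72 on the log2 scale. Pttg1, the securin gene, fell from 281, 338 and 282 RPKM to 40.7, 4.45 and 10.03 RPKM. Cdk4 rose from 2.76, 0 and 2.56 RPKM to 46.2, 73.3 and 32.7 RPKM, and Cdkn1a, a Cdk inhibitor and p53 target, from 4.66, 0.719 and 3.31 RPKM to 43.3, 59.5 and 44.4 RPKM. DNA replication genes had 4 risen and 3 fallen of 51 tested, 10 risen with autosomal scaling and 2 risen without NTM 2-cell replicate 3. The risen 7.84% and the fallen 5.88% of the list lie below the 12.1% and 14.3% of all autosomal genes. Gins3, of the replicative helicase, and Rrm1, of ribonucleotide reductase, rose by 5.16 and 4.95 on the log2 scale.

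The p53 target and apoptosis list had 10 risen (31.25%) and 5 fallen (15.6%) of 32 tested, with a median of 1.64. Over all autosomal genes tested these shares were 12.1% and 14.3%. Leaving out single libraries gave 8 to 11 risen genes. Bax, a pore former of the outer mitochondrial membrane, went from 1.35, 0.251 and 0 RPKM to 113, 91.9 and 56.5 RPKM, and Pmaip1 (Noxa), a pro-apoptotic p53 target, from 0.0386, 0.989 and 0.0305 RPKM to 50.2, 51.3 and 122 RPKM. Mcl1, an anti-apoptotic member of the Bcl2 family, rose by 3.79 on the log2 scale. Bcl2l1, also anti-apoptotic, fell from 66.2, 36.6 and 54.3 RPKM to 2.66, 0 and 0.993 RPKM, and Bik, pro-apoptotic, from 88.5, 31.4 and 37.4 RPKM to 0.0609, 0 and 0 RPKM. The list therefore held rises and falls of genes on both sides of apoptosis.

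Lineage genes were mostly low. Of 16 pluripotency factors tested, 4 rose (25%) and 2 fell (12.5%), and only 1 to 3 rose when 1 library was left out. Klf2 kept its call in each of those fits and went from 7.02, 1.22 and 0.0437 RPKM to 54.9, 41.1 and 32.9 RPKM. Pou5f1 had 9.26, 8.92 and 6.11 RPKM against 2.48, 1.82 and 1.88 RPKM, values that did not overlap but did not pass the test (adjusted p = 0.0855), and Nanog had 0 in every 2-cell library and 3.87, 0 and 1.96 RPKM at the 4-cell stage. Of 12 trophectoderm genes, 2 rose (16.7%) and 1 fell (8.33%), against 12.1% and 14.3% of all autosomal genes tested. Hand1, a factor of trophoblast giant cells, went from 0, 0 and 0.0809 RPKM to 65.4, 78.8 and 66.7 RPKM, a log2 change of 6.11 (SE 0.57, adjusted p = 0.000456), and Tfap2c rose by 3.70. The lowest log2 change of the list was -2.34, and 0 members fell without NTM 4-cell replicate 1. Gata3 was called in the NTM step, and its call was lost or turned in 4 of 15 alternative fits. Cdx2 was at 4.09 RPKM in NTM 4-cell replicate 1 and at 0 in the other 5 libraries.

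Of 6 primitive endoderm genes tested, 1 rose (16.7%) and 1 fell (16.7%), against 12.1% and 14.3% of all autosomal genes tested. Gata6, a transcription factor of the primitive endoderm, had 0, 0.228 and 0.0253 RPKM at the 2-cell stage and 37.5, 0.833 and 38.7 RPKM at the 4-cell stage, where replicate 2 stood apart from the others (log2 change 3.71, adjusted p = 0.0443). Its call was lost when any 1 library other than NTM 4-cell replicate 2 was left out (2.96 at the lowest, without NTM 4-cell replicate 3). Dab2, an endocytic adaptor, fell by 4.29 on the log2 scale. Of 26 compaction and cavitation genes, 6 rose (23.1%) and 3 fell (11.5%), against 12.1% and 14.3% of all autosomal genes, and 2 rose without NTM 2-cell replicate 2. Rhoa, which controls cortical actin, rose from 0.524, 0.911 and 0.711 RPKM to 11.6, 9.16 and 17.9 RPKM. The polarity genes Pard3 and Pard6b fell by 4.55 and 4.57, from 17.8 to 42.9 RPKM in the 2-cell libraries to 0.0301 to 1.32 RPKM.

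Markers of the donor fibroblast were low at both stages. Of 32 fibroblast and mesenchyme genes 10 passed the filter, of which 0 rose and 1 fell (10%). Over all autosomal genes tested 12.1% rose and 14.3% fell. The summed level of the 32 genes was 34.9, 30.2 and 32.8 RPKM at the 2-cell stage and 34.1, 3.31 and 12.8 RPKM at the 4-cell stage, against 15125 to 20035 RPKM in MEFs. Col3a1 and Thy1, defining markers of fibroblasts, were listed at 0 in all 6 NTM libraries, Col1a1 reached 1.38 RPKM at most, and Mmp2 was the 1 member that fell. Cumulus and granulosa genes had 2 risen (40%) and 0 fallen of 5 tested. The 2 were Gja1 (connexin 43, which embryos also make) and Amhr2. The cumulus list summed to 5.76 to 37.9 RPKM at the 2-cell stage and 116 to 160 RPKM at the 4-cell stage. Gja1 alone had 106, 97.3 and 60.7 RPKM at the 4-cell stage, and Amhr2 had 6.49, 56.0 and 51.6 RPKM. Of the other cumulus markers, Ptx3, Tnfaip6, Inha, Inhba and Fst were listed at 0 in all 6 libraries. Has2 had 0.0172 RPKM in NTM 2-cell replicate 2 and Foxl2 1.05 RPKM in NTM 4-cell replicate 3. Ptx3 (406 to 1003 RPKM) and Tnfaip6 (62.1 to 178 RPKM) were also high in MEFs, so they do not set cumulus cells apart from the donor cells. The Amhr2 call was lost without NTM 2-cell replicate 2 or 3 or without NTM 4-cell replicate 2 or 3, with log2 changes of 3.57 to 3.73. Genes at 10 RPKM or more in MEFs made up 53.9% of the risen, 21.3% of the fallen and 30.4% of all tested genes.

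The new levels were kept at later stages. The median log2(RPKM + 1) of the 1360 risen genes was 1.21 in NTM 1-cell embryos and 0.94 in 2-cell embryos, and then 4.80, 4.36, 4.01 and 4.28 from the 4-cell stage to the blastula. For the 1616 fallen genes it was 4.35 and 4.29 in 1-cell and 2-cell embryos, and then 0.37, 0.32, 0.30 and 0.68. In NTM 8-cell embryos, whose libraries took no part in the choice of the genes, 99.6% of the risen genes were above and 99.7% of the fallen genes below their mean level in NTM 2-cell embryos. The 8-cell values are still compared with the same 2-cell libraries that chose the genes.

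**Figure D4:**
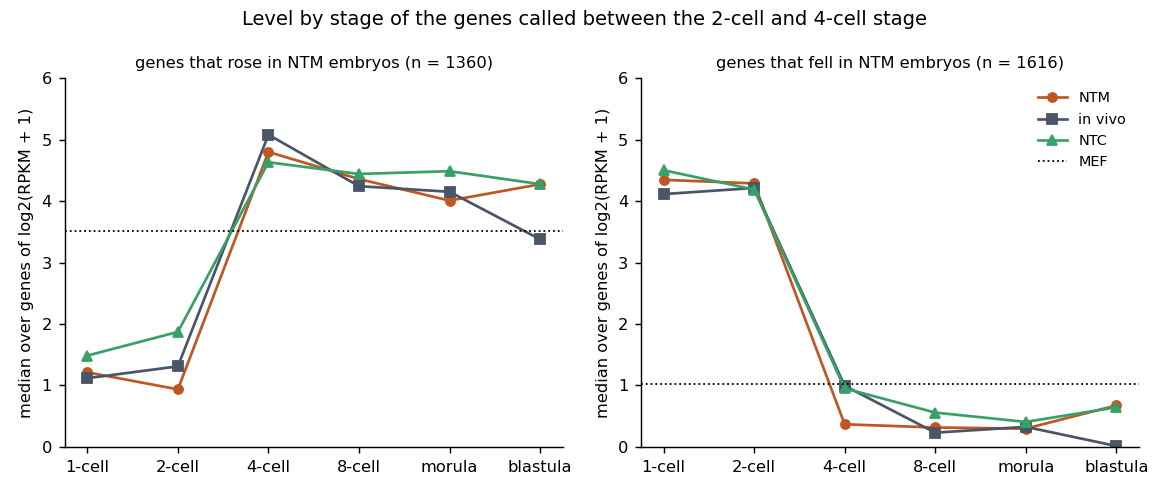
Median over genes of log2(RPKM + 1) (vertical axis) at each stage from the 1-cell embryo to the blastula (horizontal axis) in NTM, in vivo and NTC embryos, for the 1360 genes that rose (left) and the 1616 that fell (right) in NTM embryos, with the level in MEFs as a dotted line. In NTM embryos the risen genes go from 0.94 to 4.80 and the fallen genes from 4.29 to 0.37 between the 2-cell and the 4-cell stage, and both stay near the new level.

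More genes were called at the same step in in vivo embryos, in a separate fit whose calls also depend on its own spread between libraries. With one fit over all 20 groups, 5865 of 11268 genes were called in the NTM step, and the in vivo step was not counted in that way. In vivo 6537 of 12416 autosomal genes changed (52.6%), 3956 rising (31.9%) and 2581 falling (20.8%). Of the NTM genes that rose, 79.0% also rose in vivo, where they were 27.2% of the risen genes, and of those that fell, 73.9% also fell in vivo, where they were 46.3% of the fallen genes. In the opposite direction in vivo were 9 genes that rose and 16 that fell in NTM embryos. The genes that rose in NTM embryos had a median change of 3.26 in vivo, while the genes that rose in vivo and were tested in NTM embryos (3222) had a median change of 1.75 in NTM embryos.

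Tested directly as an interaction term in limma over 12 libraries, the change differed between NTM and in vivo embryos for 1238 of 12502 autosomal genes (9.9%). It was more negative in NTM embryos for 1014 genes (8.11%) and more positive for 224 (1.79%). With autosomal scaling these numbers were 576 and 412, and with median-ratio scaling 740 and 253. Of the 1014, 419 rose in vivo and were not called in NTM embryos, 366 rose in vivo and were too low to be tested in NTM embryos, and 98 rose in both. Without in vivo 4-cell replicate 1, 2 or 3 the number was 869, 883 and 935. With the 8-cell libraries of both embryo types in the place of the 4-cell libraries, a fit in which the stage changes in both types at once, 65 genes were called, 51 more positive and 14 more negative in NTM embryos (1502 at an unadjusted p under 0.05). The median log2 level of the 1014 genes in vivo was 0.32 at the 2-cell, 4.36 at the 4-cell, 1.01 at the 8-cell stage and 1.06 in the morula, against 0.56, 0.81 and 0.97 in NTM embryos at the first 3 of these stages.

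**Figure D5:**
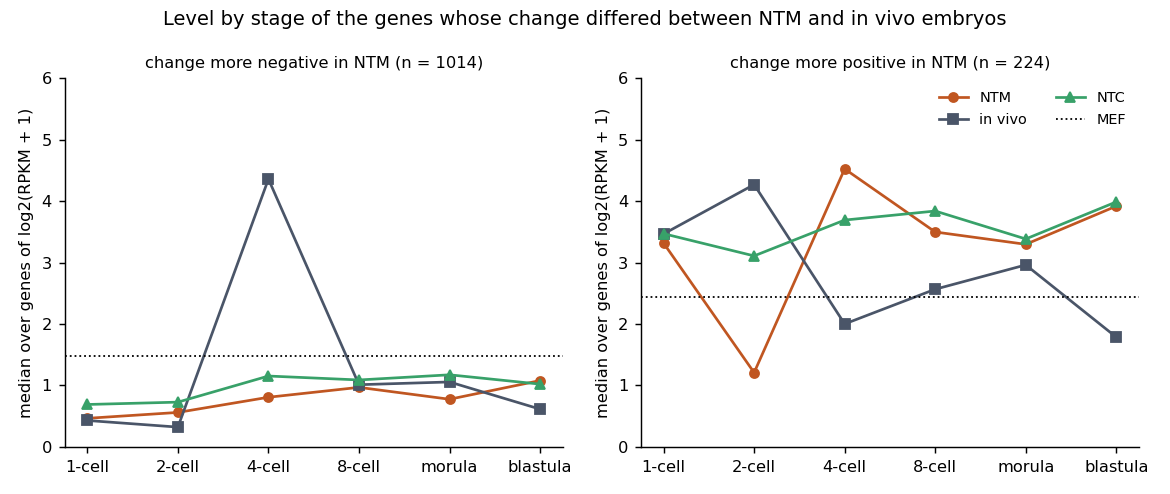
Median over genes of log2(RPKM + 1) (vertical axis) by stage (horizontal axis) in NTM, in vivo and NTC embryos, for the 1014 genes whose change was more negative in NTM than in in vivo embryos (left) and the 224 whose change was more positive (right), with the level in MEFs as a dotted line. On the left the in vivo line is high at the 4-cell stage alone (4.36), and on the right the NTM line is lowest at the 2-cell stage (1.21) and highest at the 4-cell stage (4.53).

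Several genes with large negative differences were high in the in vivo 4-cell libraries and low in the 2-cell and 8-cell ones. Mt1, a metallothionein, had means of 0.311, 14169 and 45.7 RPKM in in vivo 2-cell, 4-cell and 8-cell embryos, while in NTM embryos it had 1.04, 0.538 and 1.5 RPKM at the 2-cell and 43.2, 27.7 and 22.4 RPKM at the 4-cell stage. The difference between the changes was -9.50 on the log2 scale (SE 0.65, adjusted p = 2.64e-05) and was not called with 8-cell libraries. Dppa3 (Stella), a maternal factor that protects DNA methylation, had 50.9, 62.1 and 78.6 RPKM and then 25.3, 51.4 and 37.3 RPKM in NTM embryos, against in vivo means of 43.9, 9947 and 105 RPKM at the 3 stages. Cks2, Uqcr10, Mt2, Obox8, Hist1h2ap, Hist1h4d and Snrpb had the same form, with in vivo 4-cell means of 298 to 2738 RPKM and 8-cell means of 0 to 32.4 RPKM.

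Of the 224 genes with a more positive change in NTM embryos, 132 fell in vivo, of which 76 were not called and 41 not tested in NTM embryos, and 98 rose in NTM embryos, of which 63 were not called in vivo and 9 fell there. Hat1 had in vivo means of 20.1, 74.7 and 120 RPKM at the 2-cell, 4-cell and 8-cell stage against 0.210, 137 and 117 RPKM in NTM embryos, a difference of 4.86 between the 4-cell changes (adjusted p = 0.000979) and of 3.93 between the 8-cell changes (adjusted p = 0.0341). Zscan4d was called in both fits too (5.51 and 6.52), since it fell in vivo and was listed at 0 in NTM embryos, so its difference depends on the pseudocount of 1, and its call was lost without in vivo 2-cell replicate 2 (5.05) or in vivo 4-cell replicate 2 (5.01) or 3 (5.63). Hsp90aa1 stood at 291, 364 and 1988 RPKM in vivo and at 89.4, 1471 and 2689 RPKM in NTM embryos, so that the levels were higher in vivo at the 2-cell stage and higher in NTM embryos at the 4-cell stage. Phlda3 had in vivo means of 0, 6.84 and 10.5 RPKM against 0.03, 269 and 103 RPKM in NTM embryos, and Pmaip1 had 0, 0.06 and 0.84 RPKM against 0.35, 74.6 and 23.6 RPKM. With 8-cell libraries neither gene was called.

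Several lists that rose in vivo held genes whose change was more negative in NTM embryos. Of the cytosolic ribosomal protein genes 70 of 74 rose in vivo with a median of 5.85, and of 73 with a tested difference the change was more negative in NTM embryos for 32 and more positive for 1. Of the respiratory chain genes 63 of 72 rose in vivo with a median of 4.38, and 30 were more negative in NTM embryos. Of 73 snRNP genes 54 rose in vivo and 19 were more negative. Of 40 proteasome genes 31 rose in vivo, and the change was more negative for 10 and more positive for 1. Over all autosomal genes, 31.9% rose in vivo and 8.11% were more negative. The maternal list, in contrast, had 53 of 66 fallen in vivo with a median of -4.81. These counts use the in vivo 4-cell libraries and were not repeated with 8-cell libraries.

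The change differed from that in NTC embryos for 1 gene. In NTC embryos 4322 of 11808 autosomal genes changed at this step (36.6%), 1947 rising (16.5%) and 2375 falling (20.1%), and 78.1% of the risen NTM genes also rose there (54.5% of the risen NTC genes) and 81.0% of the fallen also fell (55.1%), with 0 in the opposite direction. The risen and fallen genes of NTM embryos had median changes of 2.49 and -2.89 in NTC embryos. The interaction term called 1 of 11958 genes (0.00836%), and 665 had an unadjusted p under 0.05. It was Gm10436, a predicted gene on chromosome 12 chosen after its values were seen, which went from 827 to 0.577 RPKM in NTM and from 856 to 35.4 RPKM in NTC embryos (means, difference -4.46, SE 0.57, adjusted p = 0.0209). Leaving out single libraries gave 0 to 2 genes. Phlda3 and Hat1, which rose in both, differed in their changes by 1.77 (SE 1.18) and 3.07 (SE 0.71) on the log2 scale with adjusted p of 0.893 and 0.445, which does not show that they changed alike.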

How the data were processed

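Single embryos were lysed, their cDNA was tailed and amplified without molecular identifiers, and libraries were read in pairs. The authors mapped the reads with TopHat, counted them per gene with HTSeq and deposited RPKM (reads per kilobase of exon and by the reads on genes of the library) for 27238 genes in 60 libraries. The submitters' processing notes name mm8 and Bowtie 0.12.2 instead, so the build is uncertain and no coordinates are given from the files.

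RPKM values were used as deposited and are relative within a library. Symbols and chromosomes came from GENCODE M21 by Ensembl ID. The depth of each library came from the size of the steps that its low values take, and at M21 exon lengths 74.2% to 77.2% of the values in the NTM libraries were whole reads within 0.01. Limits given by depth cover counting error only.

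Log2(RPKM + 1) was fitted with limma 3.58.1 (lmFit, eBayes with an intensity trend) in R 4.3.3 over the libraries compared, leaving out genes whose mean in them was under 0.5 RPKM, with Benjamini-Hochberg adjustment over all genes tested. A call needed an adjusted p under 0.05 and a log2 change of at least 1. Interaction terms compared the NTM change with the in vivo and NTC changes. Folds of low genes are understated by the pseudocount. Count models were not used on RPKM. The scripts were tested on simulated data with 50 changed genes at each size of change. At a log2 change of 2 the NTM fit recovered 0% of them, at 4 56% and at 8 80%. The differences from in vivo and NTC embryos were recovered at 4% and 8% for a change of 2, and at 48% and 54% for 4. Unchanged genes called in error numbered 7 in the NTM fit, 10 for the in vivo and 8 for the NTC difference. Changed genes were drawn only from genes with higher mean levels, so recovery among low genes was not measured. An uncalled gene may therefore still have changed. Fewer genes were changed there than were called in the NTM step, so recovery in the data may differ.

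The libraries, lists and genes were chosen with earlier results of these data known. Of 1120 genes in the 26 lists, 8 were not found. Named genes were the 12 largest rises and falls among called protein-coding genes with a symbol other than a predicted name, no overlap of the stages and at least 10 RPKM in each library of the higher stage. In each list, up to 4 called members per direction with the lowest adjusted p were eligible. Added to these were up to 8 genes per direction from each interaction and a short list taken in every case (Duxf3, Zscan4 genes, Pou5f1, Nanog, Cdx2, Gata3, Dnmt1, Zp3, Gdf9, Nlrp5, Mos, Btg4, Kdm4b, Kdm4d, Hdac1, Snrpb, Eif1ad, Npm1 and Fbl). The alternatives were a pseudocount of 0.1, no filter or a mean of at least 5 RPKM, median-ratio scaling, autosomal scaling, one fit over all 20 groups, adjustment over autosomal genes only, a replicate block, no fold change threshold, no intensity trend and leaving out each library. The use of 8-cell libraries was added after seeing the data.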

Additional observations from a re-analysis of the deposited data

Results flagged for a closer look

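The change from the 2-cell to the 4-cell stage differed between NTM and in vivo embryos, by the interaction term in limma, for 1238 autosomal genes. Among the named genes, the difference (NTM minus in vivo, log2 scale) was positive for Zfp433 (6.41), Ints6 (6.34), Fam204a (6.23), Phlda3 (6.08), Zfp97 (5.92), Nsrp1 (5.88), Pmaip1 (5.66), Ppid (5.57) and Tmigd1 (5.52). It was also positive for the 2-cell genes Zscan4d (5.51), Zscan4c (5.09) and Duxf3 (4.18), which were listed at 0 in all 6 NTM libraries. The chaperone genes Dnaja1 (4.36) and Hsp90aa1 (3.69), the acetyltransferase gene Hat1 (4.86) and the proteasome gene Psmd14 (2.73) followed.

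The difference was negative for Mt1 (-9.50), Hist1h2ap (-8.92), Dppa3 (-8.63), Hist1h4d (-8.16), Uqcr10 (-8.13), Mt2 (-7.90), Cks2 (-7.76) and Obox8 (-7.35). It was also negative for Ctnnbl1 (-5.71) and Snrpb (-5.66), of the spliceosome, Ing3 (-5.26), Crxos (-4.41), Polr2k (-4.12), Zbed3 (-3.88), Psmb1 (-2.92) and Marf1 (-2.84). With 8-cell in the place of 4-cell libraries the call was lost or turned for 29 of the 31 named genes that could be fitted. Between NTM and NTC embryos 1 gene differed.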

How the results depend on the processing

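Of 155 named genes called in the NTM step, 122 kept their call under every alternative in which they could be fitted. Of 32 called in the difference from in vivo embryos, 2 did, Hat1 and Hist1h4d. Hist1h4d could not be fitted with 8-cell libraries, so Hat1 alone kept its call under all the alternatives. The count of 2976 called genes was 2052 to 3228 under the other fits with all 6 libraries, except one fit over all 20 groups, which shares the spread of other groups (5865), and 1824 (without NTM 2-cell replicate 2) to 2552 (without NTM 2-cell replicate 1) with a library left out. The difference from in vivo embryos was called for 838 to 1245 genes, 2562 when all 20 groups were fitted together, 65 with 8-cell libraries, and 869 to 1426 with a library left out. The difference from NTC embryos was called for 1 gene, 80 with one fit over all 20 groups, 0 with no intensity trend (661 at an unadjusted p under 0.05), and 0 to 2 with a library left out. It was 0 without each NTC library except 4-cell replicate 2, and without NTM 2-cell replicate 1 or 2. The cause was not tested.

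Same-numbered NTM libraries did not deviate together (correlations -0.05, 0.01 and -0.05), so they share only a number, and with a replicate block 2931, 968 and 0 genes were called in the 3 comparisons (632 at an unadjusted p under 0.05 in the last).

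Uncalled genes near 0 changed sign. Dnmt1 (0.02) had -0.12 with median-ratio scaling and -0.26 (without NTM 2-cell replicate 3) to 0.20 with a library left out. Kdm4b (-0.03) had 0.075 with median-ratio and 0.13 with autosomal scaling, and -0.40 to 0.36 with a library left out. With 8-cell libraries the differences from in vivo embryos of Psmb1, Uqcr10 and Mt2 became 0.081, 0.39 and 0.075. Low values are limited by the depth of 9771750 reads in the shallowest NTM 4-cell library.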
